A study of Arabidopsis thaliana with 4 samples.

Results

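The clade A protein phosphatases 2C (PP2Cs) of Arabidopsis thaliana are the central negative regulators of abscisic acid signalling. Their 9 genes are ABI1, ABI2, HAB1, HAB2, HAI1, HAI2, HAI3, AHG1 and AHG3, the last of which the reference gene table lists as PP2CA. They were taken by locus: a probe set belonged to a member where its annotation named that locus and no other. Each gene had 1 such probe set, so that 9 of the 22746 probe sets tested (21226 genes) are described here. All 9 carry the plain suffix that, per the deposited column descriptions, marks probes specific to a single transcript.

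The study compared whole 5-d-old seedlings of the accession Columbia 0 that had grown with ASP (2 arrays) or without it (2 arrays, control). ASP is a synthetic sulfonylpiperazine with a bromophenoxyacetyl group, and the sources used here do not give its dose. Both groups were sown on agar of half-strength MS medium that held 0.1% sucrose and kept in days of 16 h light and 8 h dark. Total RNA was hybridised to Affymetrix 3′ expression arrays, and the titles call the samples biological replicates, without saying how many seedlings were pooled or whether they came from separate sowings. P-values therefore judge a difference against the spread between the 2 samples within each group, moderated by that of the other probe sets.

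In the absence of abscisic acid these phosphatases dephosphorylate and silence the SnRK2 protein kinases. When the hormone is bound by a receptor of the PYR/PYL family, the receptor closes over the active site of the phosphatase and the kinases are released to phosphorylate bZIP transcription factors and ion channels. Several of the phosphatase genes are themselves induced by abscisic acid, which gives the pathway a negative feedback. ABI1 and ABI2 are known from dominant abscisic acid insensitive mutants, HAB1 and HAB2 are their closest relatives, the HAI genes are the most strongly induced by the hormone, and AHG1 and AHG3 are known from mutants hypersensitive to it at germination.

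The arrays were similar in the number of probe sets detected. Between 15075 and 15706 probe sets were called present, a call that, per the deposited column descriptions, means that the signal differed from background. The median log2 signal ran from 7.503 to 7.530, but the signals were already normalized, so this closeness is no measure of array quality. In the 14261 probe sets that every array detected, the ASP arrays differed from each other by a median of 0.175 on the log2 scale and the control arrays by 0.172, while arrays of different groups differed by 0.171 to 0.219. Of 42 spike-in control probe sets 37 were higher on the ASP arrays, with a median log2 difference of 0.18, and 1 of them differed by more than the largest difference among the phosphatase genes that were present. With so few arrays, every value below has limited precision.

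Transcripts of 5 of the 9 phosphatase genes were detected on all 4 arrays, namely ABI1, HAB1, HAB2, HAI1 and AHG3. ABI1 had the largest difference of these 5, 1.49-fold higher with ASP, while AHG3 was 1.20-fold and HAB1 1.09-fold higher, and HAB2 and HAI1 had fold changes (ASP over control) of 0.958 and 0.932. ABI2, HAI3 and AHG1 were called absent on all 4 arrays and HAI2 on 3 of them. None of the 9 passed limma's test without a trend (0 of 9, smallest Benjamini-Hochberg adjusted p 0.578), and over all probe sets that fit called 0%. A second limma fit, in which the prior variance follows brightness (the intensity trend), also called 0 of the 9 (smallest adjusted p 0.136), against 0.317% of all probe sets. At an unadjusted p under 0.05 the fit without a trend held 2 of the 9, ABI1 and the absent ABI2, against 7.42% of all probe sets, and the trend fit held 1, ABI1, against 9.47%.

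**Figure D1:**
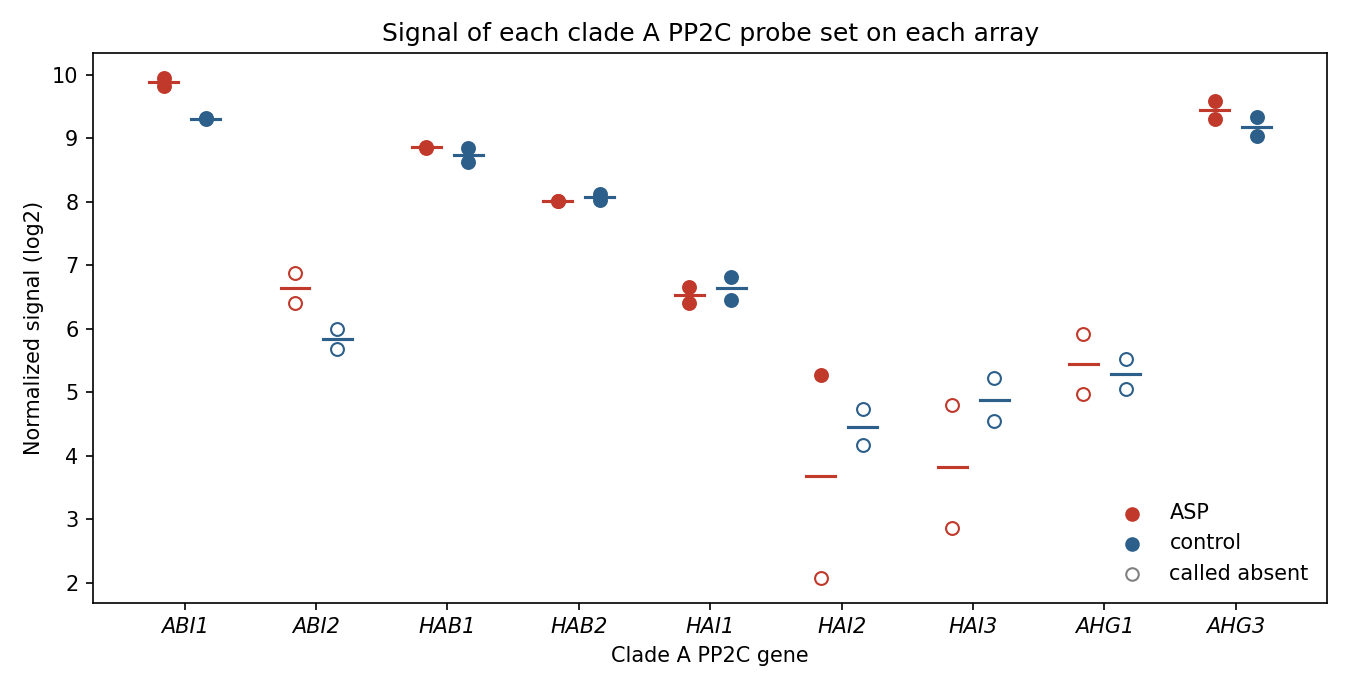
Normalized log2 signal (vertical axis) of the probe set of each clade A PP2C gene on the 2 ASP arrays (red, left) and the 2 control arrays (blue, right); filled points were called present, open points absent, and bars are group means. ABI1 is the detected gene with the clearest separation of the groups (9.95 and 9.82 with ASP, against 9.32 and 9.30 in control), and heights of different genes are not comparable because probe sets differ in affinity.

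ABI1 (AT4G26080) encodes the phosphatase in which abscisic acid insensitivity was first traced to this family. Its linear signal was 992 and 905 on the ASP arrays, against 640 and 630 on the control arrays. On the log2 scale the levels were 9.95 and 9.82 with ASP, against 9.32 and 9.30 in control, so that the groups did not overlap and were separated by 0.501 between their nearest arrays. The log2 difference was 0.58 with a standard error of 0.14 and a 95% interval of 0.15 to 1.01, which corresponds to a ratio of 1.11 to 2.01. With the intensity trend the interval was 0.30 to 0.85 (limma adjusted p 0.136, and 0.578 without the trend). The range within a group was at most 0.13, and the pooled within-group SD of 0.07 was below the median of 0.13 for probe sets of like brightness. Of the 14261 probe sets present on all 4 arrays, 2.7% had a larger positive log2 difference than ABI1. This share leaves out probe sets that were lower with ASP by as much or more. Leaving out each array in turn gave log2 differences from 0.51 to 0.64.

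ABI2 (AT5G57050) is the nearest relative of ABI1 and overlaps with it in function. Its log2 signal was 6.88 and 6.41 on the ASP arrays, against 5.68 and 5.99 on the control arrays, and every one of these signals was called absent. The groups did not overlap. Because no array measured ABI2 above background, no fold change is given for it (limma adjusted p 0.662, and 0.566 with the intensity trend).

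HAB1 (AT1G72770) and HAB2 (AT1G17550) encode a closely related pair of phosphatases, of which HAB1 is a major brake on abscisic acid responses in seeds and vegetative tissue. HAB1 had log2 signals of 8.87 and 8.84 with ASP, against 8.84 and 8.63 in control. Both ASP arrays lay above both control arrays, but the nearest arrays of the groups were only 0.007 apart. The log2 difference of 0.13 had a 95% interval of -0.34 to 0.60, and its limma adjusted p was 0.882. It lay between 0.02 and 0.23 when each array was left out in turn. HAB2 had log2 signals of 8.01 and 8.02 with ASP, against 8.12 and 8.03 in control. Here both ASP arrays lay below both control arrays, by 0.008 between the nearest ones. The log2 difference of -0.06 had a 95% interval of -0.48 to 0.35 (limma adjusted p 0.939), so that for HAB2 a ratio above 1.28 or below 0.719 lay outside the interval. The leave-one-out differences of HAB2 ran from -0.11 to -0.02.

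The 3 HAI genes are named for their strong induction by abscisic acid and act in drought and osmotic stress. HAI1 (AT5G59220), also known as SAG113 and linked to leaf senescence, was the one detected, with log2 signals of 6.66 and 6.40 on the ASP arrays, against 6.82 and 6.45 on the control arrays. The groups overlapped. Its log2 difference of -0.10 had a 95% interval of -0.76 to 0.55, a ratio of 0.592 to 1.47 (limma adjusted p 0.935), and lay between -0.28 and 0.08 when each array was left out in turn. HAI2 (AT1G07430), also described as a partner of the potassium channel AKT1, had log2 signals of 5.27 and 2.08 with ASP, against 4.17 and 4.73 in control. The ASP array at 5.27 was the only one on which HAI2 was called present, and the control arrays lay between the ASP arrays. HAI3 (AT2G29380) had log2 signals of 4.80 and 2.86 with ASP, against 4.54 and 5.22 in control, all called absent, and the groups overlapped. For HAI2 and HAI3 no fold change is given. Their limma adjusted p were 0.91 and 0.825.

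AHG1 (AT5G51760), which acts mainly in seeds and is not inhibited by the hormone receptors in the way of the other phosphatases, had log2 signals of 5.92 and 4.97 with ASP, against 5.05 and 5.52 in control. All 4 were called absent, with overlapping groups (limma adjusted p 0.951). None of 16 seed and embryo markers was present on all 4 arrays, and 14 of them, among them the storage protein genes CRA1 and SESA1 and the regulator genes LEC1 and FUS3, were present on none. AHG3 (AT3G11410), a regulator of germination and of guard cell anion channels, was detected at log2 signals of 9.59 and 9.31 with ASP, against 9.03 and 9.34 in control. The lower ASP array lay just below the higher control array. Its log2 difference of 0.27 had a 95% interval of -0.37 to 0.90 (limma adjusted p 0.825), and -0.10 to 0.64 with the intensity trend. Leaving out each array in turn gave 0.11 to 0.42.

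**Figure D2:**
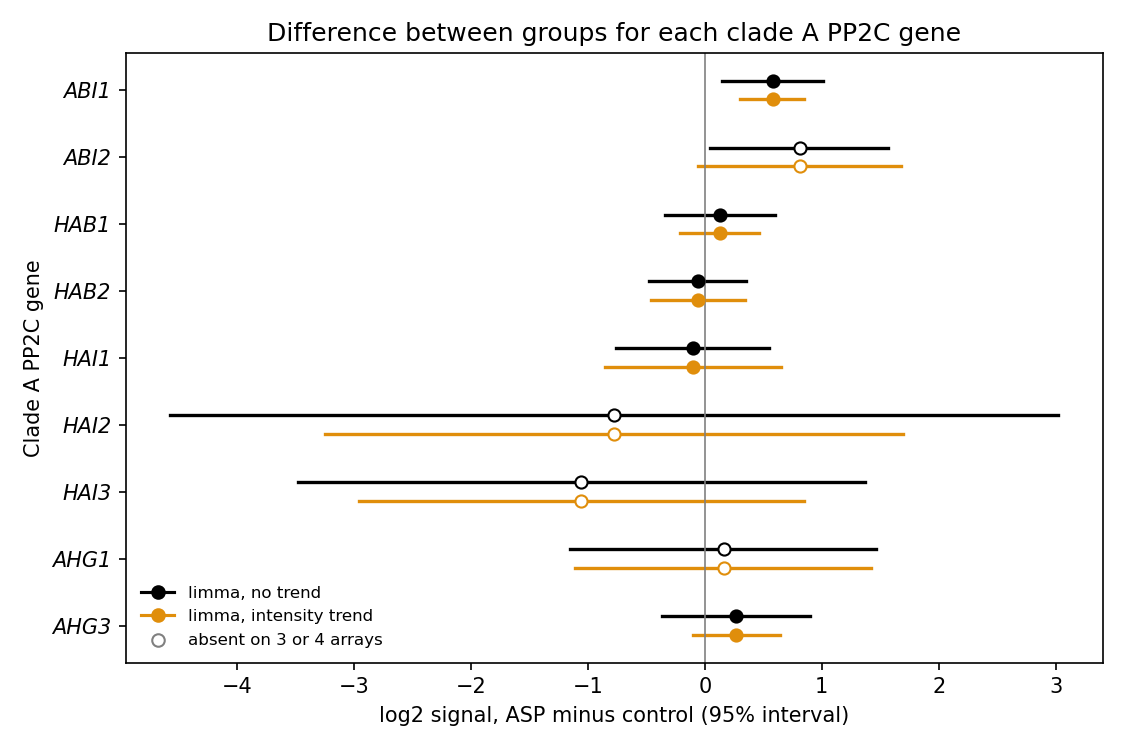
log2 signal of the ASP group minus that of the control group (horizontal axis) for each clade A PP2C gene, with 95% intervals from limma without a trend (black) and with the intensity trend (orange); open points are genes called absent on 3 or 4 arrays. Both intervals of ABI1 (0.15 to 1.01 and 0.30 to 0.85) lie above 0, those of HAB1, HAB2, HAI1 and AHG3 include 0, and those of HAI2 span several units. For the absent ABI2 the interval lies above 0 without the trend (0.04 to 1.57) and includes 0 with it (-0.06 to 1.68). No interval is adjusted for the number of genes.

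Over all 9 genes, 5 had a positive and 4 a negative log2 difference, with a median of 0.13, against 47.5% positive and a median of -0.02 over all probe sets. The groups did not overlap in 4 of the 9 (ABI1, ABI2 and HAB1 with ASP above, HAB2 with ASP below), where 39.4% of all probe sets were without overlap, 18.5% with ASP above and 20.9% with ASP below. With 2 arrays against 2, an exact two-sided permutation test of a single gene cannot give a p below 0.333. The absent genes were also the least precise: the pooled within-group SD was 0.53 for AHG1, 1.03 for HAI3 and 1.62 for HAI2, against 0.05 to 0.22 for the 5 detected genes.

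Because all values of an array share its scaling, each detected gene was also set against the mean log2 signal of the other 4 on the same array. This ratio was chosen after the values were seen, so it is given as a description. For ABI1 it was 0.52 and 0.52 above the control mean on the ASP arrays, with the control arrays at -0.03 and 0.03. For HAI1 it was -0.25 and -0.41 on the ASP arrays, with the control arrays at 0.18 and -0.18. The ratio of HAB2 was -0.38 and -0.18 with ASP, against 0.01 and -0.01 in control. HAB1 and AHG3 overlapped between the groups. ABI1 stood above the mean of the others in both groups, by 1.67 and 1.68 with ASP, against 1.12 and 1.19 in control. HAB2 and HAI1 stood below that mean in both groups, and farther below it on both ASP arrays than on either control array. For HAB2 and HAI1 that mean includes ABI1, so their ratios fall where ABI1 rises. By themselves HAB2 and HAI1 differed between the groups by only -0.06 and -0.10.

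**Figure D3:**
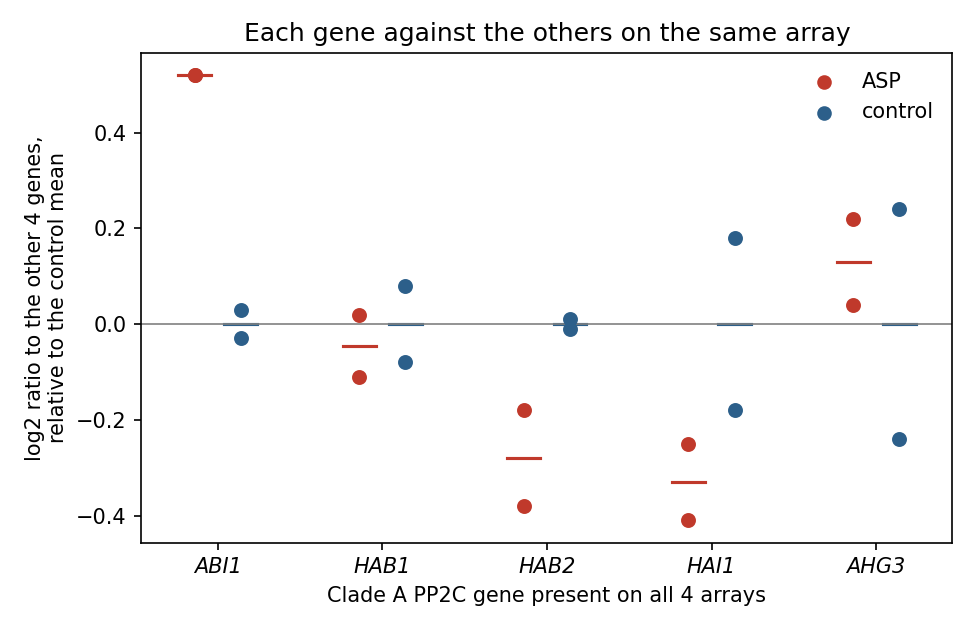
log2 ratio of each detected clade A PP2C gene to the mean of the other 4 on the same array, relative to the mean of that ratio over the control arrays (vertical axis), for ASP (red, left) and control (blue, right) arrays; bars are group means. ABI1 stands at 0.52 on both ASP arrays, HAB2 and HAI1 lie below 0 on both, and the ratios of the 5 genes are not independent of each other.

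Among the 13535 other genes present on all 4 arrays and with a probe set of their own, the pattern most like that of ABI1 was found in AT5G57345, AT5G23130, which encodes a LysM domain protein, and AT1G32520. Likeness was the Euclidean distance between the 4 log2 signals, each minus its own mean over the 4 arrays, and was 0.041, 0.042 and 0.056. A distance under 0.2 from ABI1 was reached by 179 genes. The average pattern of the 5 detected phosphatase genes, whose mean log2 signal was 8.62 and 8.48 with ASP, against 8.42 and 8.35 in control, was most like those of the 14-3-3 protein gene GRF9, AT5G48460 and AT5G06970, at 0.009, 0.017 and 0.018. Here 2221 genes lay within 0.2, so that the average pattern was common on these arrays. Among the phosphatase genes themselves, HAB1 and HAB2 were the closest pair, at 0.21, and ABI1 and HAI1 the farthest apart, at 0.73.

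The genes that work with the phosphatases were read from the same fit. Of the 14 PYR/PYL receptors, which bind abscisic acid and inhibit the phosphatases, 10 had a probe set of their own and 9 of these were present on all 4 arrays. Their log2 differences were positive in 4 and negative in 6, with a median of -0.11, and 0 passed limma's test with or without the trend, while 2 had an unadjusted p under 0.05 in each fit. Those 2 receptors lay on opposite sides. PYL6 had log2 signals of 8.68 and 8.61 with ASP, against 9.46 and 9.34 in control, a difference of -0.75 (limma adjusted p 0.512, and 0.0815 with the trend), and PYL7 had 8.83 and 8.61 with ASP, against 8.21 and 8.23 in control (0.50, adjusted p 0.662). PYL4 and PYL2 had differences of -0.19 and -0.27.

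All 10 SnRK2 kinase genes, whose products the phosphatases dephosphorylate, were present on all 4 arrays. Of their log2 differences 8 were positive, with a median of 0.11 and a range of -0.36 to 0.41. By limma 0 passed with or without the trend, and 0 without it and 1 with it had an unadjusted p under 0.05. The members with the smallest p were SNRK2.10 (0.31), SNRK2.7 (-0.36), SNRK2.5 (0.24) and SNRK2.4 (0.25). Of the kinases most strongly activated by abscisic acid, named here as background to the phosphatases, OST1 and SNRK2.2 differed by 0.06 each and SNRK2.3 by less than 0.01.

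Among 13 measured transcription factors and co-regulators of abscisic acid signalling, 9 had a positive difference, with a median of 0.39, but only 8 were present on all 4 arrays. None passed limma's test (2 at an unadjusted p under 0.05 without the trend, 1 with it). The bZIP factor gene EEL had log2 signals of 7.46 and 7.39 with ASP, against 6.36 and 6.32 in control, a 2.13-fold difference (limma adjusted p 0.384, and 0.226 with the trend). The authors' deposited table, computed from 3 columns per group, lists EEL as 2.08-fold higher. AFP1 and AFP3, members of the ABI5-binding protein family, differed by 0.69 and 0.39 and TMAC2, of the same family, by -0.23. ABI5, ABI4 and DPBF2 were called absent on all 4 arrays.

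Of 14 measured partners, substrates and turnover factors of the phosphatases 7 had a positive and 7 a negative difference, with a median of 0.00 and 0 limma calls in either fit (0 at an unadjusted p under 0.05 in both). AKT1, the root potassium channel, differed by -0.34, the ubiquitin ligase gene RGLG5, whose product targets clade A phosphatases, by -0.34, the ligase adaptor gene BPM5 by 0.17 and the chromatin remodelling gene BRM by 0.10. In 31 measured abscisic acid response genes the median difference was -0.24, with 14 positive and 17 negative. The lowest and highest differences, -2.56 (MYB102) and 1.47 (RD29B), belonged to genes absent on all 4 arrays. The median therefore does not describe the detected genes alone. Of the 31, 15 were present on all 4 arrays and 12 on none. RD29B, RAB18, EM1, EM6 and NCED3, classical responders to the hormone or to drought, were among the 12. The fit without a trend called 0 (5 at an unadjusted p under 0.05). With the trend it called 1, RD26, a drought-responsive NAC factor gene, at 10.11 and 9.92 with ASP, against 8.99 and 8.74 in control (2.22-fold, limma adjusted p 0.0217, and 0.443 without the trend). The call was lost whichever array was left out of the trend fit, a setting added after seeing the data (adjusted p 0.0824 to 0.271), with log2 differences from 1.03 to 1.27. CYP707A3 and CYP707A2, which encode catabolic enzymes of the hormone, differed by 0.49 and 0.93 and RD22 by 0.29. CYP707A1, of the same enzyme family, and RD29A, both picked after their values were seen, differed by -0.33 and -0.44.

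The other PP2C genes of the genome gave a comparison outside clade A. Of 50 whose annotation names a phosphatase 2C, 28 had a positive and 22 a negative difference, with a median of 0.03, and 42 were present on all 4 arrays. By limma 0 passed in either fit (1 at an unadjusted p under 0.05 without the trend, 2 with it). AT5G02760, a clade D phosphatase gene, had log2 signals of 12.63 and 12.71 with ASP, against 11.95 and 12.16 in control, a 1.53-fold difference close in size to that of ABI1 (limma adjusted p 0.604, and 0.102 with the trend). AT3G17090, also of clade D, whose members are known to act on the plasma membrane proton pump, differed by 0.40. AT2G20050 differed by 0.30, with a second probe set, absent on all 4 arrays, on the other side, and AT3G63340, absent on both control arrays, was at least 1.51-fold higher as a bound for the detection limit only. The clade A genes were not tested against these as a set.

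**Figure D4:**
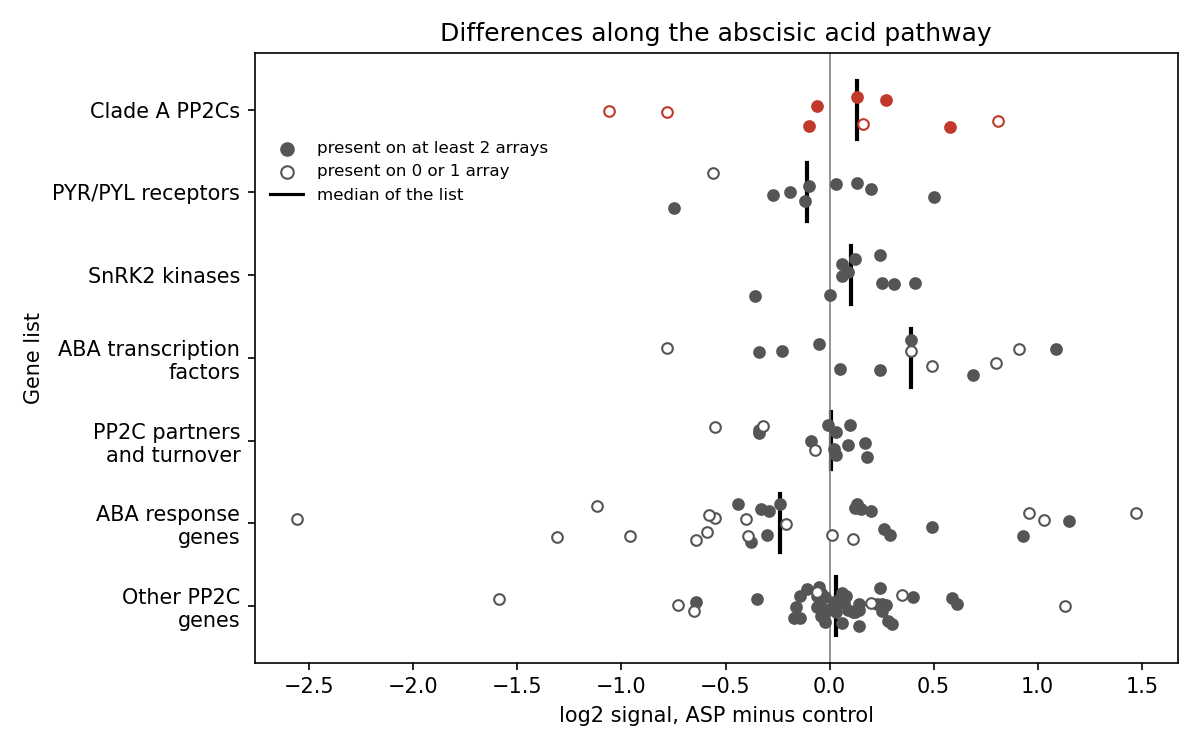
log2 signal of the ASP group minus that of the control group (horizontal axis) for the clade A PP2C genes (red, top row) and for genes of 6 lists around them, with filled points for genes present on at least 2 arrays, open points for the rest and a black bar at each median. The medians include the open points and run from -0.24 (response genes) to 0.39 (transcription factors). The lowest value of all, -2.56 in a response gene, is an open point, and every point of the SnRK2 row is filled.

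Markers of the organs and cell types in a whole seedling were read from the same fits. Of 7 shoot markers 4 had a probe set of their own, and all 4 had a positive difference (median 0.26, smallest limma adjusted p 0.737, and 0.322 with the trend), with summed linear signals of 45884 and 41326 with ASP, against 36321 and 34342 in control. Of 8 root markers 7 had a negative difference (median -0.52), with summed linear signals of 2101 and 2250 with ASP, against 3525 and 2591 in control. Among them the iron transporter gene IRT1 was 3.53-fold lower and the endodermal genes CASP1 and CASP2 1.83-fold and 1.93-fold lower. SHR, the 1 root marker with a positive difference, was 1.24-fold higher. The root median includes PLT1, which was absent on all 4 arrays. Of the shoot, root and guard cell markers limma called 0 without the trend and only IRT1 with it (adjusted p 0.0177, and 0.352 without it). Leaving out any 1 array from the trend fit, which was added after seeing the data, ended that call (adjusted p 0.0726 to 0.183). The 8 guard cell markers had a median of -0.02 and summed linear signals of 563 and 592 with ASP, against 530 and 591 in control, and SLAC1, GORK and HT1 among them were present on no array. Shoot and root share were not measured, and their part in the difference of ABI1 was not tested. In whole seedlings, fewer cells that express a gene and less transcript per cell cannot be told apart.

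The authors' deposited table, computed from 3 columns per group, lists probe sets that differed by at least 2-fold at an unadjusted p under 0.05. It holds 148 probe sets, where 22746 were tested here, and 0 of them belong to the clade A phosphatase genes. The largest difference of a detected clade A gene was 1.49-fold here, for ABI1, so a 2-fold threshold left little room for one to be listed. Of the genes in the 5 abscisic acid lists and the list of other PP2C genes, 2 are in that table, EEL and RD26.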

How the data were processed

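Per the file headers, the authors deposited log2 signals, already normalized, and calls that mark each probe set as present, marginal or absent. The sources used here do not say how the signal was summarised and scaled. The log2 values of the series matrix equalled those of the workbook to within 5e-09. The authors' deposited table gave an unadjusted p-value of a t-test and a ratio (fold change) of group means of linear signal, per the file headers. A further 4 workbook columns, of which 2 hold log2 signal, carry names of no sample of the series and were not used.

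Without 64 Affymetrix control probe sets, 22746 probe sets were fitted by limma 3.58.1 under R 4.3.3 (lmFit with eBayes, no trend, no replicate block, two-sided, 2 residual and 1.34 prior degrees of freedom, 6.06 with the intensity trend). P-values were adjusted by Benjamini-Hochberg over all probe sets, with a threshold of 0.05, and the fits were tested on simulated data. Log2 differences are ASP minus control, and errors are limma standard errors. No fold is given where a gene was called absent on all arrays, or on both arrays of the brighter group. Where it was absent on both arrays of the dimmer group, the fold is a bound, taken against its own signal or the lowest present signal of that array, whichever was higher. The brightest probe set stood for a gene of the lists. Up to 4 genes per list were named, those with the smallest p among genes present on both arrays of a group, besides others said to be picked afterwards and members of a list named for being absent. Among the marker lists the rule also gives KAT2, KAT1, FAMA and ALMT12 (guard cell) and CA1, RCA, PSAD1 and GLK1 (shoot), none of them called. Names of loci come from the gene table of the assembly TAIR10.1, of which no coordinates were used. The alternatives were the intensity trend, a robust prior, a replicate block, 2 filters on dim probe sets, a floor, 2 normalizations, the series matrix, leaving out each array, an unmoderated test and the mean over probe sets. The members and lists were chosen with earlier results of these data known.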

Additional observations from a re-analysis of the deposited data

How the results depend on the processing

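The number of probe sets called by limma was 0 without a trend, 72 with the intensity trend, 18 without the dimmest 30%, 19 with those present on at least 2 arrays, and 1 (PGL4, lower with ASP) with linear values under 50 set to 50. Leaving out an array gave 0 without the trend and, chosen after seeing the data, 9 to 37 with it (11 without ASP replicate 1, 9 without ASP replicate 2, 22 without control replicate 1 and 37 without control replicate 2). In each of these the group of 1 array was assumed to vary like the other group, so that each probe set's own spread came from 1 pair of arrays. RD26 and IRT1, called with the trend on all 4 arrays, were called in none of the 4 trend fits without an array. Clade A phosphatase genes were called in 0 of the planned settings. Whether a replicate number marks a shared sowing is not known. The correlation of same-numbered deviations from the group means was 0.000171 over all probe sets and -0.0238 over those present on all 4 arrays. This does not settle whether the samples were paired. A replicate block in limma called 0 probe sets and gave ABI1 an adjusted p of 0.761. The block together with the trend, chosen after seeing the data, called 321 probe sets, 1 of the clade A genes (ABI1, adjusted p 0.0475) and 3 genes of the lists around them (the pathway genes RD26 and PYL6 and the clade D phosphatase gene AT5G02760), where the trend alone called 1. Over 19 alternatives the adjusted p of ABI1 ran from 0.0475 to 0.81 and its log2 difference from 0.51 to 0.64. ABI1, ABI2, HAB1, HAB2 and AHG3 kept the sign of their difference in every alternative that could be run for them. HAI1, HAI2, HAI3 and AHG1 had differences of the other sign or of 0 in 4, 3, 1 and 4 alternatives, which left out 1 array or raised dim values to the floor. Many alternatives could not change a sign, because the variance prior, the replicate block, the unmoderated test and the series matrix leave the difference as it is. The trend fits without an array also repeat the differences of those without the trend, so these counts hold the same leave-outs again. The number of detected clade A genes with a positive difference was 3 or 4. The cause of these shifts was not tested.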
